A study of Mus musculus with 12 samples.

Results

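The pancreatic islet secretes several peptide hormones besides insulin, and 5 genes encode those of its non-β-cells. Gcg encodes proglucagon and marks α-cells, Sst encodes somatostatin and marks δ-cells, Ppy encodes pancreatic polypeptide and marks PP cells, Pyy encodes peptide YY, and Ghrl encodes ghrelin and marks ε-cells. These 5 genes were found in the count table by the Ensembl identifiers that the mm9 annotation pairs with their symbols, out of 37991 genes in all. The rule uses their names and no measured value. All 5 passed the filter on low counts that left 15961 genes for testing.

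Bulk RNA of islets from male C57BL/6 mice was sequenced in 4 groups of 3 libraries. Tg7 mice overexpress miR-7a2 in β-cells only and were compared with their wild-type littermates (Wt) at 2 weeks (2w) and at 12 weeks of age (12w); the study describes Tg7 mice as prediabetic at the first age and diabetic at the second. No source used here names the promoter that drives the transgene. Each library pooled the islets of at least 3 animals, so n counts pools, and every p value measures the spread between pools.

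The libraries held between 11610697 and 17515758 reads on genes. The islet label held: Ins1 and Ins2 together took between 10.1% and 30.0% of all counts in the 6 Wt libraries, and 8 acinar genes summed to between 9.66 and 26.1 counts-per-million (CPM) in any library, with Amy2a5 at 0 in all 12. The transgene itself was not checked, because short miRNAs are not measured in these libraries. The Wt 12w libraries lay furthest apart. Replicate 4 differed from the other two by a chi-square of 104 and 176 per degree of freedom, against 6.91 to 67.9 for every other pair of replicates. Hormone gene calls that turned on this library are given with and without it. CPM values below were scaled by TMM factors, which equalise the bulk of genes between libraries and ran from 0.684 to 0.871 in Wt 12w and from 0.969 to 1.19 in the other groups. With library size alone in place of these factors, the median over all tested genes moved to 0.43 (log2) for Tg7 against Wt at 12w and to 0.19 at 2w.

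Glucagon, released by α-cells when glucose is low, drives glucose output from the liver. Somatostatin acts on neighbouring cells and lowers the release of both insulin and glucagon. Pancreatic polypeptide and peptide YY belong to the neuropeptide Y family, act through Y receptors and reduce food intake and exocrine secretion. Ghrelin must be acylated by Mboat4 to bind its receptor, stimulates appetite, and comes from a cell type that is common in the fetal islet and rare in the adult one. Each hormone is cut from a longer precursor, mostly at pairs of basic residues, by the convertases Pcsk1 and Pcsk2. In α-cells Pcsk2 releases glucagon from proglucagon, while Pcsk1 releases GLP-1 from the same precursor.

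The coding bases of the 5 mature hormones are shown because they are what the counted transcripts encode, and because Ppy and Pyy are related genes that could share reads. They were read from mm9 transcripts of GENCODE vM1, 5′ to 3′ on the coding strand, with hormone codons in lower case and the flanking codons at which the precursor is cut or amidated in capitals.
Gcg (glucagon): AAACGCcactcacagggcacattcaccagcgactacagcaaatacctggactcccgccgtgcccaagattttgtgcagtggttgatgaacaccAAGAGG
Sst (somatostatin-14): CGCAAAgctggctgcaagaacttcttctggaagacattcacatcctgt
Ppy (pancreatic polypeptide): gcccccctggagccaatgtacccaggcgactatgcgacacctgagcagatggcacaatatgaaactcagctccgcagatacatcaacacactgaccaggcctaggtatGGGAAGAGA
Pyy (peptide YY): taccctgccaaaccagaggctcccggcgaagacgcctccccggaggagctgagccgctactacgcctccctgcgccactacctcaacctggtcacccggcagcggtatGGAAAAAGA
Ghrl (ghrelin): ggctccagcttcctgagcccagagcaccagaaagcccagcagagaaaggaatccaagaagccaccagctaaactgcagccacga

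Glucagon is encoded by 87 of these bases and fills residues 53 to 81 of a precursor of 180 residues, whose coding sequence held 7 pairs of basic codons. Somatostatin-14 is the last 14 of 116 residues and lies behind a basic pair. Ppy and Pyy each encode 36 residues followed by a glycine and a basic pair, the signal for amidation and cutting. Their hormones were identical at 16 of 36 residues (44.4%) and at 58 of 108 bases (53.7%), and no stretch longer than 11 bases was shared by any pair of the 5 transcripts. The ghrelin sequence shown has 28 residues and no capitals, because no basic pair flanks it on either side.

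Gcg (ENSMUSG00000000394) lies on chr2:62312587-62321707 and Sst (ENSMUSG00000004366) on chr16:23889667-23890930. Ppy (ENSMUSG00000017316) lies on chr11:101961244-101962633 and Pyy (ENSMUSG00000017311) on chr11:101967990-101969146, 5356 bases apart with no annotated gene between them. Ghrl (ENSMUSG00000064177) lies on chr6:113666113-113669874. All coordinates are mm9, every one of these genes is on the minus strand, and none overlaps another annotated gene. The counts are those of reads on the exons of each gene.

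The agent of the Tg7 model is a miRNA, so the 3′ UTRs of the 5 genes were searched for its seed. The mature miR-7a-5p (RefSeq, GRCm38.p6) is given with its seed, bases 2 to 8, in capitals.
mmu-miR-7a-5p: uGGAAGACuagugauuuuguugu
The full seed match, GTCTTCC on the transcript strand, was found in the annotated 3′ UTR of 0 of the 5 genes; 11.2% of 19984 genes of the table with an annotated 3′ UTR hold it. The shorter TCTTCC, which lies within that match, was found once each in Gcg and Sst, and 39.9% of genes hold it. The UTRs of the 5 genes were 131 to 448 bases long, against a median of 891 over all these genes. The 2 shares are therefore not matched for length. The 30 bases around each are shown with the match in capitals.
Gcg, 3′ UTR bases 354 to 383: ggaaagagaactTCTTCCttgaatccttta
Sst, 3′ UTR bases 45 to 74: aaaccccatatcTCTTCCttaactcctggc
The search covered the transcript strand of annotated 3′ UTRs, and a match there is a description of letters only.

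Gcg was the most abundant of the 5 genes in every group. Per kilobase of exon it stood at 27234 ± 3934 CPM in Wt 2w, 37500 ± 12275 in Tg7 2w, 21851 ± 6938 in Wt 12w and 21596 ± 5152 in Tg7 12w (mean ± SD, n = 3 each). Ppy came next in the same unit, from 6125 ± 1781 CPM per kilobase in Wt 2w to 12516 ± 2728 in Tg7 2w. Pyy lay at 4127 ± 381 in Wt 2w and 6477 ± 1129 in Tg7 2w, above Sst in both 2w groups (3279 ± 61.1 and 3302 ± 870). At 12w the order of this pair turned, with Sst at 5526 ± 2294 in Wt and 4027 ± 669 in Tg7 against Pyy at 3053 ± 1538 and 3246 ± 813, although their libraries overlapped in both groups. Libraries of Ppy and Pyy overlapped in Wt 2w, and those of Ppy and Sst in Wt 12w, while the other neighbours in the order did not overlap in any group. Ghrl was rarer than the other genes throughout, between 8.69 ± 4.26 and 35.4 ± 0.659 CPM per kilobase, from 42 to 357 reads per library.

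**Figure D1:**
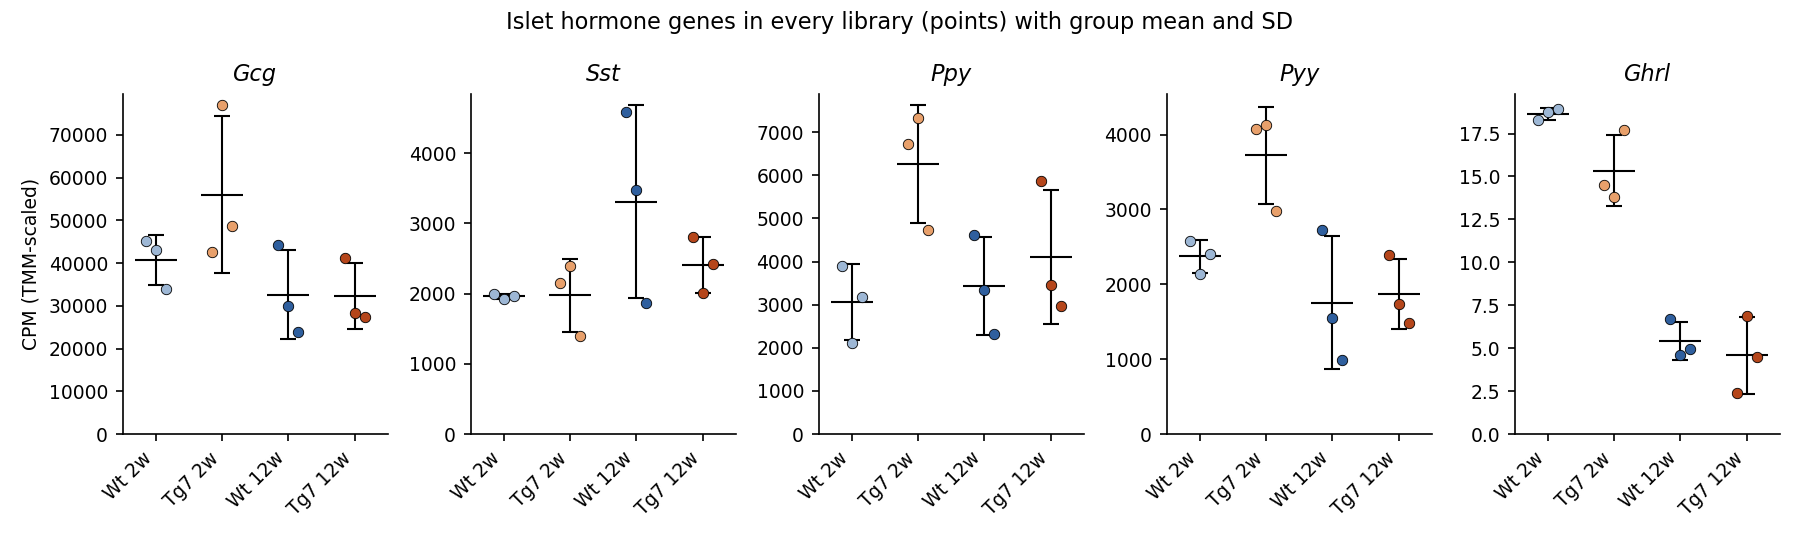
TMM-scaled CPM of each hormone gene on the vertical axis, starting at 0, in every library of the 4 groups (points) with the mean and SD of 3 libraries (bars). Pyy is highest in the 3 Tg7 2w libraries, Ppy in these 3 lies above all 6 Wt libraries but in replicate 3 below Tg7 12w replicate 1, and Ghrl is below 7 CPM in all 6 libraries at 12w and above 13 CPM in all 6 at 2w.

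At 2w, before the onset of diabetes in this model, the comparison asks which non-β-cell hormone transcripts already differ in Tg7 islets. Ppy was 2.04-fold higher in Tg7 than in Wt, Pyy and Gcg had higher means that did not pass the test, and Sst and Ghrl did not pass it either. Thus 1 of the 5 genes was called higher and 0 lower, against 6.07% and 4.55% of all tested genes (edgeR, adjusted p under 0.05); 2 passed an unadjusted p of 0.05, and DESeq2 called 1. Median log2 fold change was 0.46 for the 5 genes and 0.03 for all tested genes.

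Ppy in Wt 2w measured 3891, 2121 and 3176 CPM, and in Tg7 2w 6726, 7327 and 4722 CPM. Every Tg7 library lay above every Wt library, with a log2 fold change of 1.03 (SE 0.31, edgeR adjusted p = 0.0475). This call was close to the threshold. It did not survive the omission of replicate 1 (adjusted p = 0.0588), 2 (0.163) or 3 (0.138) of Wt 2w, of replicate 1 (0.0930) or 2 (0.126) of Tg7 2w, of replicate 2 of Wt 12w (0.0564), or of replicate 2 (0.0674) or 3 (0.0536) of Tg7 12w, while the log2 fold change stayed between 0.82 and 1.24.

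Pyy measured 2573, 2138 and 2407 CPM in Wt 2w and 4076, 4121 and 2975 CPM in Tg7 2w. Here too the groups did not overlap, but the difference did not pass the adjusted test (log2 fold change 0.65, SE 0.29, edgeR adjusted p = 0.171). It passed with the 2w libraries fitted alone (0.65, adjusted p = 0.0208) and with library size alone (0.81, adjusted p = 0.0419).

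Gcg measured 45046, 43011 and 34004 CPM in Wt 2w and 42598, 76920 and 48558 CPM in Tg7 2w. The Tg7 mean rested largely on replicate 2, and the groups overlapped (log2 fold change 0.46, SE 0.28, edgeR adjusted p = 0.319; 0.16 without that replicate). Sst measured 1996, 1924 and 1973 CPM in Wt 2w and 2149, 2392 and 1393 CPM in Tg7 2w, with a log2 fold change of 0.01 (SE 0.27, edgeR adjusted p = 0.987). The 3 Wt libraries agreed closely for Sst, and the Tg7 libraries lay on both sides of them.

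Ghrl measured 18.3, 18.8 and 18.9 CPM in Wt 2w and 14.5, 13.8 and 17.7 CPM in Tg7 2w. The Tg7 libraries all lay below the Wt libraries, but the log2 fold change of −0.28 (SE 0.27) did not pass the test (edgeR adjusted p = 0.559). For scale, Ins1 and Ins2, which encode insulin, had log2 fold changes of −1.79 (SE 0.38, edgeR adjusted p = 0.00931) and −2.49 (SE 0.37, adjusted p = 9.4e-04) at the same age.

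At 12w, in diabetic Tg7 mice, none of the 5 genes passed the test against Wt with all libraries. The calls were 0 higher and 0 lower (edgeR), against 12.5% and 11.2% of all tested genes, with 0 at an unadjusted p of 0.05 and 0 by DESeq2. Median log2 fold change was −0.02 for the 5 genes and −0.01 for all tested genes. Over the same libraries the log2 fold change was −3.85 for Ins1 (SE 0.42, edgeR adjusted p = 2.5e-05) and −1.71 for Ins2 (SE 0.36, adjusted p = 0.00401).

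Gcg measured 44109, 29892 and 23936 CPM in Wt 12w and 41134, 28315 and 27343 CPM in Tg7 12w. The libraries of both genotypes covered much the same range, and the log2 fold change was −0.02 (SE 0.28, edgeR adjusted p = 0.976). Ppy measured 4607, 3351 and 2328 CPM in Wt and 5878, 3462 and 2964 CPM in Tg7 (log2 fold change 0.26, SE 0.31, adjusted p = 0.600). Its groups overlapped, and it was called only with library size alone (0.73, adjusted p = 0.0421), a scaling that moves the median of all genes to 0.43.

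Pyy measured 2722, 1556 and 987 CPM in Wt 12w and 2386, 1734 and 1479 CPM in Tg7 12w, and the Tg7 libraries fell inside the Wt range (log2 fold change 0.09, SE 0.29, edgeR adjusted p = 0.868). Ghrl measured 6.67, 4.6 and 4.93 CPM in Wt and 2.37, 6.86 and 4.52 CPM in Tg7, from 42 to 124 reads (log2 fold change −0.22, SE 0.30, edgeR adjusted p = 0.656). Its Tg7 libraries lay on both sides of the Wt libraries.

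Sst measured 4593, 3478 and 1860 CPM in Wt 12w and 2807, 2006 and 2423 CPM in Tg7 12w. Wt replicate 4 was the lowest of the 6 libraries for Sst, and the log2 fold change was −0.46 (SE 0.27, edgeR adjusted p = 0.257). Without that library the difference passed the test (−0.74, adjusted p = 0.0194), and with library size alone the sign turned (0.03, adjusted p = 0.922). Wt replicate 4 was also the lowest of the Wt 12w libraries for Gcg, Ppy and Pyy; without it their log2 fold changes were −0.19 (adjusted p = 0.663), 0.05 (0.927) and −0.19 (0.609), none of which passed the test.

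**Figure D2:**
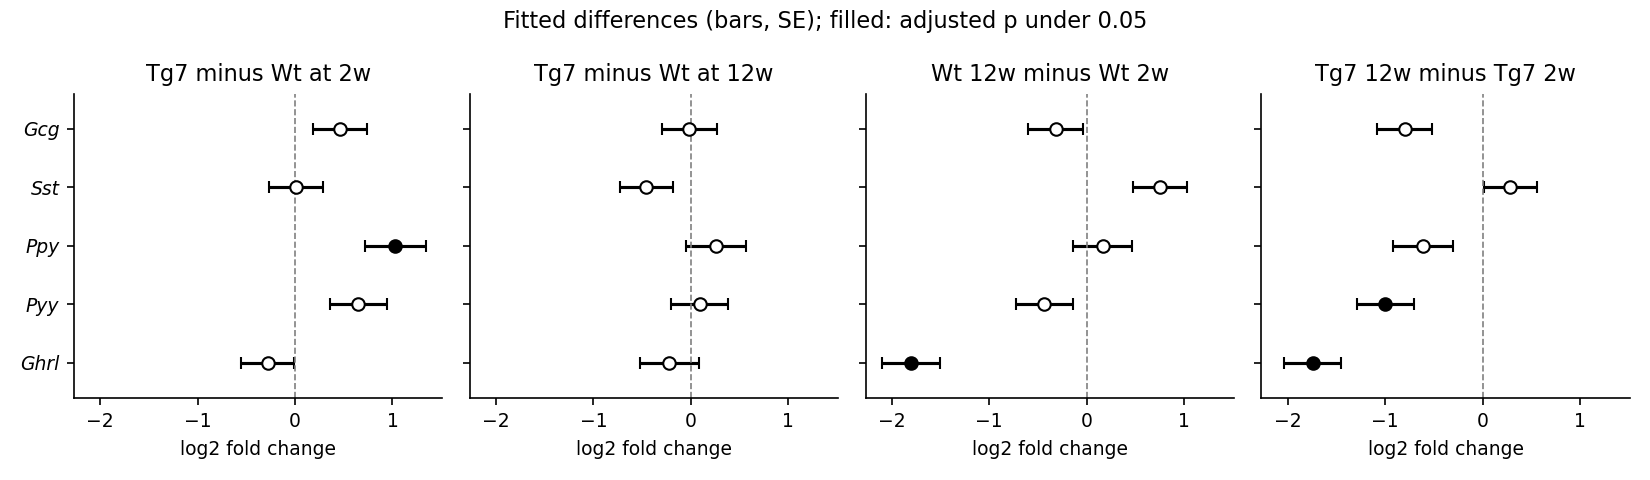
Log2 fold change of the 5 hormone genes on the horizontal axis with its SE (bars) in 4 comparisons, filled where the edgeR adjusted p is under 0.05. Ppy is filled at 2w (1.03), no gene is filled at 12w, Ghrl is filled in both comparisons between ages (−1.80 and −1.74) and Pyy in Tg7 alone (−0.997).

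Whether the Tg7 effect itself differed between the ages was tested with the interaction of genotype and age. The calls among the 5 genes were 0 higher and 0 lower (edgeR), against 0.871% and 0.307% of all tested genes, with 0 at an unadjusted p of 0.05 and 0 by DESeq2. The largest estimate was that of Ppy, whose Tg7 effect was lower at 12w than at 2w by −0.77 (log2, SE 0.43, edgeR adjusted p = 0.446). A fall in the Tg7 effect on Ppy between the ages was therefore not shown.

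The 2 ages were next compared within each genotype, which asks how hormone transcripts change from the suckling to the adult islet. Litters of different ages are different animals, and age cannot be told apart from any difference in handling between the 2 ages. In bulk tissue, fewer cells of a type and less RNA per cell cannot be told apart either. In Wt islets 1 of the 5 genes was called lower at 12w and 0 higher, against 7.91% and 7.9% of all tested genes. In Tg7 islets 2 were called lower and 0 higher, against 6.01% and 7.02%. These comparisons share no library with each other, but both came from the same fit of all libraries. They share its estimate of the spread, so their p values are not independent.

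Ghrl fell in both genotypes. Its mean dropped from 18.7 ± 0.347 CPM to 5.40 ± 1.11 in Wt (log2 fold change −1.80, SE 0.29, edgeR adjusted p = 0.00109) and from 15.3 ± 2.08 to 4.58 ± 2.25 in Tg7 (−1.74, SE 0.29, adjusted p = 0.00139). No 12w library of either genotype reached the lowest 2w library. Both calls were kept under every other setting, including each library left out in turn (adjusted p at most 0.00582 and 0.00985), with the log2 fold change between −1.96 and −1.71 in Wt and between −2.15 and −1.43 in Tg7 without any 1 library.

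Pyy fell with age in Tg7 islets, from 3724 ± 649 to 1866 ± 468 CPM (log2 fold change −0.997, SE 0.29, edgeR adjusted p = 0.0389), and the groups did not overlap. Omitting replicate 1 (adjusted p = 0.0527), 2 (0.0538) or 3 (0.0579) of Wt 2w, replicate 1 (0.0992) or 2 (0.0994) of Tg7 2w, or replicate 2 (0.132) or 3 (0.153) of Tg7 12w ended it. In Wt islets Pyy had means of 2373 ± 219 and 1755 ± 884 CPM (−0.44, SE 0.29, adjusted p = 0.332). Omitting Wt 12w replicate 1 brought a call in Wt (−0.89, adjusted p = 0.0294), as did library size alone (−0.89, adjusted p = 0.0167). A larger fall in Tg7 than in Wt was not shown, since the interaction for Pyy was −0.56 (SE 0.41, adjusted p = 0.588).

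Gcg in Tg7 islets went from 56025 ± 18339 to 32264 ± 7697 CPM with groups that did not overlap, but missed the threshold (log2 fold change −0.80, SE 0.28, edgeR adjusted p = 0.0811). It was called without Wt 12w replicate 1 (adjusted p = 0.0386) or 4 (0.0391) and by DESeq2 (−0.80, adjusted p = 0.0143), whereas without Tg7 2w replicate 2 the log2 fold change was −0.50 (adjusted p = 0.282). In Wt the Gcg groups overlapped, at 40687 ± 5877 and 32645 ± 10365 CPM (−0.32, SE 0.28, adjusted p = 0.470).

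Sst was the one gene of the 5 with a higher estimate at 12w in both genotypes. In Wt its mean was 1964 ± 36.6 CPM at 2w and 3310 ± 1374 at 12w (log2 fold change 0.75, SE 0.27, edgeR adjusted p = 0.0780). Without Wt 12w replicate 4 this rise passed the test (1.03, adjusted p = 0.00321), and DESeq2 called it with all libraries (0.76, adjusted p = 0.0248). In Tg7 the Sst means were 1978 ± 521 and 2412 ± 401 CPM (0.29, SE 0.27, edgeR adjusted p = 0.535). Ppy did not pass the test with age in Wt (0.16, SE 0.31, adjusted p = 0.755) or in Tg7 (−0.61, SE 0.31, adjusted p = 0.218).

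The 5 genes were next set beside the insulin genes as shares of the hormone RNA. The counts per kilobase of exon of Ins1, Ins2, Iapp (islet amyloid polypeptide, which β-cells secrete with insulin) and the 5 non-β-cell genes were set to 100% in each library. The 5 non-β-cell genes together made up 21.6 ± 2.80% of these hormone transcripts in Wt 2w and 59.3 ± 2.95% in Tg7 2w (mean ± SD, n = 3). At 12w they made up 8.82 ± 1.29% in Wt and 23.6 ± 4.12% in Tg7. These shares must rise where insulin falls, rise also where the 5 genes themselves do, and are given as a description, without a test. They also depend on the lengths used, which join all annotated exons of a gene. For Gcg this length was 1494 bases, against 1088 for the transcript from which its sequence was read. For Sst (599 bases) and Ppy (500 bases) both lengths were equal, so the shares only approximate shares of transcripts.

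Gcg took 14.4 ± 2.41% of hormone transcripts in Wt 2w and 36.9 ± 5.12% in Tg7 2w, where it exceeded Ins2 (17.5 ± 2.44%) in all 3 libraries. At 12w Gcg took 5.24 ± 1.06% in Wt and 13.7 ± 2.13% in Tg7. Ppy went from 3.19 ± 0.738% in Wt 2w to 12.5 ± 1.99% in Tg7 2w, and Pyy from 2.20 ± 0.409% to 6.55 ± 1.22%. Sst went from 1.76 ± 0.376% to 3.28 ± 0.563% at 2w and from 1.26 ± 0.0164% to 2.57 ± 0.276% at 12w. As shares of all counts the differences were smaller: the 5 genes took 4.96 ± 0.427% of counts in Wt 2w, 7.82 ± 1.90% in Tg7 2w, 3.14 ± 0.651% in Wt 12w and 4.33 ± 0.959% in Tg7 12w.

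**Figure D3:**
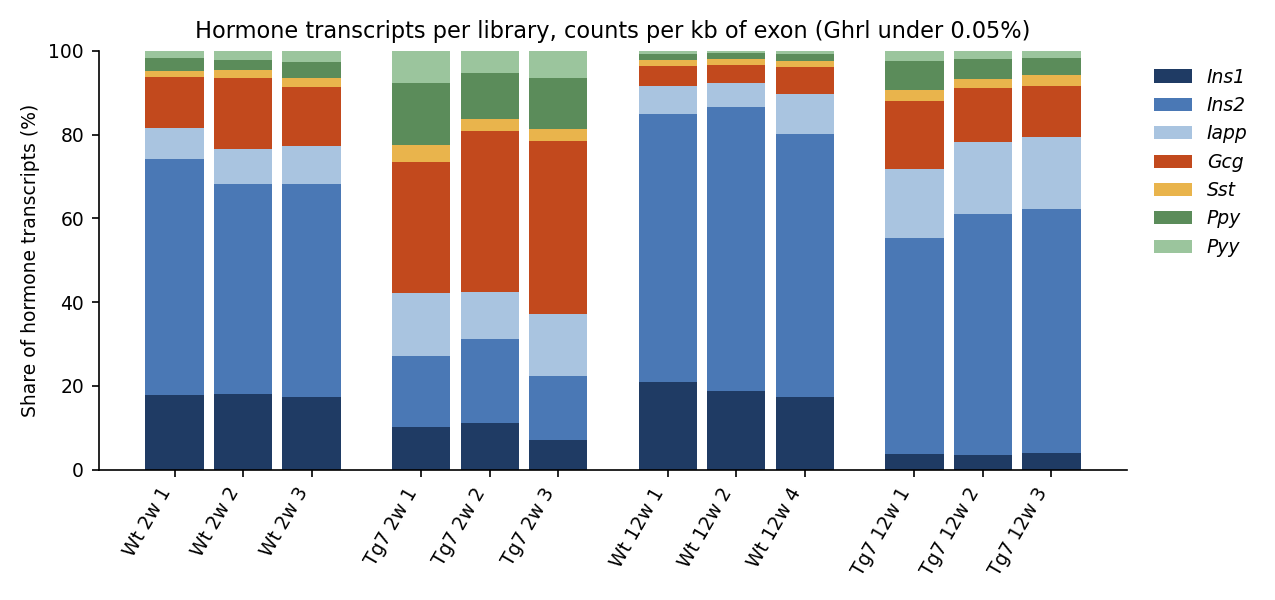
Share of hormone transcripts (%, counts per kilobase of exon, vertical axis) taken by 7 hormone genes in each of the 12 libraries. Ins1 and Ins2 fill 22.4 to 31.2% of the bars in Tg7 2w against 68.2 to 74.2% in Wt 2w, and Gcg is the largest part of all 3 Tg7 2w bars.

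Ratios of 2 hormone genes within a library do not depend on the scaling between libraries. For the 10 pairs among the 5 genes, the log2 ratio of counts (pseudocount 0.5) was compared between Tg7 and Wt with an exact two-sided permutation test that shuffles genotype within each age, in which the smallest possible p is 0.005 over 400 regroupings. After adjustment over the 10 pairs, 3 ratios stood exactly at 0.05 and none below it, so no pair was called. A pair that alone had the smallest p of 0.005 would be adjusted to 0.05, so this test could not call a pair on its own. It therefore does not show that the ratios were unchanged, and 4 pairs had an unadjusted p under 0.05. The 3 ratios at 0.05 all set Ppy or Pyy, the neuropeptide Y relatives, against Sst or Gcg, and all were lower in Tg7. The remaining pair of this kind, Gcg to Pyy, differed by only −0.20 (exact permutation p = 0.265, adjusted p = 0.294).

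The log2 ratio of Sst to Pyy was lower in Tg7 by −0.61 over both ages (exact permutation p = 0.005, adjusted p = 0.05). It was −0.37, −0.15 and −0.29 in Wt 2w against −0.92, −0.79 and −1.10 in Tg7 2w, and 0.75, 1.16 and 0.91 in Wt 12w against 0.23, 0.21 and 0.71 in Tg7 12w. At each age every Tg7 library lay below every Wt library. The 2 ages differed more from each other than the genotypes did: Sst had fewer counts than Pyy in all 6 libraries at 2w and more in all 6 at 12w.

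For Sst to Ppy the log2 ratio was lower in Tg7 by −0.85 (exact permutation p = 0.01, adjusted p = 0.05). The difference was −1.08 at 2w and −0.62 at 12w. Libraries did not overlap at 2w, where Tg7 lay between −1.76 and −1.62 and Wt between −0.96 and −0.14, whereas at 12w 1 Tg7 library, replicate 3 at −0.29, lay within the Wt range of −0.32 to 0.05. For Gcg to Ppy the log2 ratio was lower in Tg7 by −0.44 (exact permutation p = 0.015, adjusted p = 0.05), with Wt 2w between 3.42 and 4.34, Tg7 2w between 2.66 and 3.39, Wt 12w between 3.16 and 3.36 and Tg7 12w between 2.81 and 3.21. Leaving out Wt 2w replicate 3 or Tg7 12w replicate 3 brought the same 3 ratios below the threshold, to adjusted p = 0.0333 and 0.0167 in the exact permutation test.

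Gcg to Sst was higher in Tg7 by 0.41 (exact permutation p = 0.045, adjusted p = 0.1). Ppy to Pyy, the ratio of the neighbouring genes on chromosome 11, differed by 0.24 (exact permutation p = 0.105, adjusted p = 0.15). The ratios of Ghrl to the other genes rest on its few reads, and their adjusted p ran from 0.1 to 0.755 in the same exact permutation test.

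**Figure D4:**
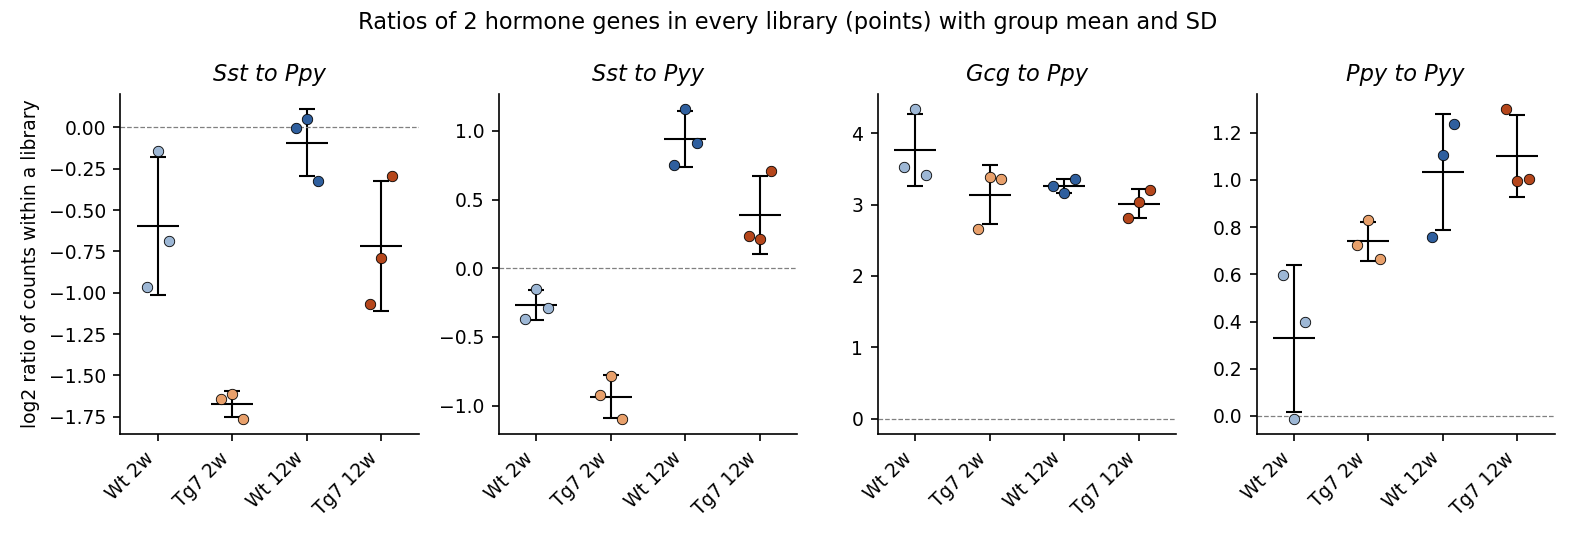
Log2 ratio of the counts of 2 hormone genes within each library (points) with group mean and SD (bars). Sst to Pyy is below 0 in all 6 libraries at 2w and above 0 in all 6 at 12w, and at each age the Tg7 libraries lie below the Wt libraries.

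The hormone genes also varied together between libraries of one group. Deviations of log2 CPM from the 4 group means were correlated over the 12 libraries, as a description: Pearson's r was 0.89 for Sst and Pyy, 0.88 for Ppy and Pyy, 0.75 for Sst and Ppy, 0.74 for Gcg and Pyy, 0.70 for Gcg and Sst and 0.67 for Gcg and Ppy. Ghrl stood apart, with r between −0.38 and −0.12 to the other 4. All these values share libraries and scaling factors, and in Wt 12w the order of the libraries was the same for Gcg, Sst, Ppy and Pyy, with replicate 1 highest and replicate 4 lowest.

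Among 11550 tested genes with a mean of at least 5 CPM, the 3 genes most like each hormone gene in log2 CPM over the 12 libraries were listed with Pearson's r. Gcg was most like Pyy (0.88), followed by ENSMUSG00000093587 (0.87) and Ilk (0.86). Sst was most like Mrps30 (0.94), Rplp1 (0.94) and Oxtr (0.93), and Oxtr, the oxytocin receptor, was also among the 3 nearest in deviations from the group means (0.97, with Banp at 0.97 and Ctdnep1 at 0.96). Ppy was most like Eif3f (0.87), Gnb2l1 (0.87) and Tmem194b (0.86). Pyy was most like Sept6 (0.92), Sepn1 (0.91) and Nicn1 (0.91). Ghrl was most like Nid2 (0.95), Igf2bp2 (0.95) and Lrp4 (0.94).

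In deviations from the group means Gcg was nearest to mt-Co3 (0.95), AI316807 (0.93) and 2010012O05Rik (0.93). Ppy was nearest to 4930430F08Rik (0.94), Ube2l6 (0.93) and Csda (0.92), Pyy to Plp2 (0.97), Cdc26 (0.96) and Mrps30 (0.96), and Ghrl to Papd4 (0.86), Frg1 (0.86) and Zfp398 (0.85). With 12 libraries and 11550 genes, values of this size are given as an order only.

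The markers of the cells that make these hormones were set beside them. Counts called in this list and those that follow stand against the shares of all tested genes. These were 6.07% higher and 4.55% lower in Tg7 at 2w, and 12.5% and 11.2% at 12w. With age they were 7.9% higher and 7.91% lower in Wt, and 7.02% and 6.01% in Tg7. Of 7 α-cell genes, 1 was called higher and 0 lower in Tg7 at 2w, and 2 higher and 0 lower at 12w (3 and 2 at an unadjusted p of 0.05); their median log2 fold changes were 0.45 and 0.23. Gc, the vitamin D binding protein of α-cells, rose from 106 ± 6.69 to 211 ± 16.7 CPM at 2w (log2 fold change 0.99, SE 0.13, edgeR adjusted p = 2.9e-04) and from 235 ± 30.0 to 671 ± 52.1 at 12w (1.51, SE 0.13, adjusted p = 2.9e-06). Slc38a5, a glutamine transporter that α-cells raise when amino acids accumulate, stood at 17.8, 11.8 and 11.1 CPM in Wt 12w and at 103, 76.2 and 83.1 CPM in Tg7 12w. This was the largest change in the list (log2 fold change 2.70, SE 0.20, adjusted p = 1.1e-06), whereas Slc38a5 did not pass the test at 2w (0.52, SE 0.18, adjusted p = 0.0849).

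With age 4 of the 7 α-cell genes fell and 1 rose in Wt, and 4 fell and 1 rose in Tg7. In Wt the falls that were kept without any 1 library were those of Slc38a5 (−2.81, adjusted p = 1.2e-06), Pou3f4 (−2.31, adjusted p = 0.0101) and Irx1 (−1.04, adjusted p = 0.00326), and the gene that rose was Gc (1.15, adjusted p = 5.8e-05). The fall of Slc7a2 in Wt (−0.53, adjusted p = 0.0433) ended on omitting any Wt 2w or Tg7 12w library or replicate 1 or 2 of Wt 12w (adjusted p up to 0.186). In Tg7 the 4 genes that fell were again Irx1, Pou3f4, Slc7a2 and Slc38a5, and Gc rose (1.67, adjusted p = 5.6e-06). Of these falls in Tg7, that of Slc7a2 (−0.72) ended on omitting replicate 2 of Tg7 2w or 1 or 3 of Tg7 12w (adjusted p up to 0.0598), and that of Slc38a5 (−0.63) on omitting replicate 3 of Wt 2w, any Tg7 2w library or 2 or 3 of Tg7 12w (up to 0.156). In log2 CPM, Gcg exceeded the mean of the 7 α-cell genes by 9.50 ± 0.116 in Wt 2w, 9.49 ± 0.257 in Tg7 2w, 10.1 ± 0.431 in Wt 12w and 9.39 ± 0.204 in Tg7 12w (mean ± SD, n = 3). The libraries of Wt 2w (9.42 to 9.63) and Wt 12w (9.62 to 10.48) overlapped in this margin, as did those of Wt 12w and Tg7 12w (9.24 to 9.63). The mean of the 7 genes, which include Gc and Slc38a5, was itself 4.89 ± 0.0804 in Wt 12w and 5.56 ± 0.125 in Tg7 12w.

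Of 8 δ-cell genes 7 were tested. In Tg7 0 were called higher or lower at 2w (edgeR; 0 at an unadjusted p of 0.05 and 0 by DESeq2), with a median log2 fold change of 0.00, and 1 was called higher at 12w, Ptprz1 (0.63, SE 0.21, adjusted p = 0.0444), with a median of −0.08. DESeq2 called 1 δ-cell gene higher and 1 lower at 12w. The Ptprz1 call ended on omitting any Wt 2w or Tg7 12w library, replicate 2 of Tg7 2w or replicate 2 of Wt 12w (adjusted p up to 0.129). Hhex, the transcription factor of δ-cells, had log2 fold changes of 0.22 (adjusted p = 0.530) and −0.00 (adjusted p = 0.994). With age 3 δ-cell genes fell and 0 rose in each genotype. In Wt these were Ffar4, a fatty acid receptor (−1.19, adjusted p = 0.00783), Ptprz1 (−0.97, adjusted p = 0.00735) and Hhex (−0.75, adjusted p = 0.0282, up to 0.0983 on omitting replicate 2 or 3 of Wt 2w or 2 or 4 of Wt 12w). Sst exceeded the mean of the 7 δ-cell genes by 6.60 ± 0.116 in Wt 2w, 6.61 ± 0.270 in Tg7 2w, 8.05 ± 0.885 in Wt 12w and 7.78 ± 0.318 in Tg7 12w (log2 CPM, mean ± SD, n = 3).

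Genes that process the precursors were mostly expressed at high levels in all groups. Of 8 such genes 7 were tested; Mboat4, which acylates ghrelin, had 0 to 5 reads per library and was not. At 2w 1 was called higher and 1 lower in Tg7, against 6.07% and 4.55% of all tested genes. At 12w 2 were called higher and 1 lower, against 12.5% and 11.2%. Pcsk1, the convertase of proinsulin, measured 371, 390 and 419 CPM in Wt 2w and 151.8, 100.5 and 111.2 CPM in Tg7 2w (log2 fold change −1.70, SE 0.29, edgeR adjusted p = 0.00253). It did not pass the test at 12w (−0.63, SE 0.29, adjusted p = 0.135). With age Pcsk1 rose in Tg7 (1.22, SE 0.29, adjusted p = 0.0130), a call lost without Tg7 2w replicate 2 (adjusted p = 0.0555) and with library size alone. Pcsk2, which releases glucagon, stood at 3871 and 3575 CPM on average in Wt and Tg7 at 2w and at 4050 and 3891 CPM at 12w, with log2 fold changes of −0.12 (adjusted p = 0.675) and −0.06 (adjusted p = 0.829). Scg5, the chaperone of Pcsk2, rose at 12w (0.69, SE 0.14, adjusted p = 0.00244), as did Pam, the enzyme that amidates peptides such as pancreatic polypeptide and peptide YY (0.81, SE 0.16, adjusted p = 0.00291).

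The remaining processing calls were weaker. Pcsk1n, an inhibitor of Pcsk1, was higher in Tg7 at 2w (0.57, SE 0.16, edgeR adjusted p = 0.0385), and this call was lost on leaving out any one of the Wt 2w, Tg7 2w or Tg7 12w libraries (adjusted p up to 0.157). Dpp4, which inactivates GLP-1 and trims peptide YY, was lower in Tg7 at 12w (−0.51, SE 0.17, adjusted p = 0.0409), which ended on omitting replicate 2 or 3 of Wt 2w, 1 or 3 of Tg7 2w, 4 of Wt 12w or any Tg7 12w library (adjusted p up to 0.158, log2 fold change as small as −0.28). With age 2 processing genes rose and 1 fell in Wt, and 4 rose and 1 fell in Tg7; Scg5 in Tg7 (0.87, adjusted p = 8.9e-04), Pam in Tg7 (0.82, adjusted p = 0.00471) and Cpe, carboxypeptidase E, in Wt (0.72, adjusted p = 0.00732) kept their calls without any 1 library, though Cpe lost it with library size alone and with only the groups compared.

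Between genotypes, receptor genes were called in both directions, and the higher calls came from few reads. The list also held Gipr, whose ligand none of the 5 genes encodes. Of 13 receptor genes 9 were tested, since Sstr4, Npy2r, Npy4r and Npy5r had at most 6 reads in any library. At 2w 0 were called higher and 2 lower in Tg7, against 6.07% and 4.55% of all tested genes. At 12w 2 were called higher and 2 lower, against 12.5% and 11.2%, while DESeq2 called 2 higher and 4 lower. At an unadjusted p of 0.05 there were 4 at 2w and 7 at 12w, and median log2 fold changes were −0.40 and 0.05. Gcgr, the glucagon receptor, measured 48.6, 60.9 and 50.02 CPM in Wt 2w and 14.98, 9.47 and 19.01 CPM in Tg7 2w, and the groups lay far apart (log2 fold change −1.87, SE 0.22, edgeR adjusted p = 1.4e-04). At 12w Gcgr measured 38.3, 45.1 and 35.2 CPM in Wt and 41.6, 57.6 and 54.4 CPM in Tg7, and did not pass the test (0.37, SE 0.21, adjusted p = 0.226). The Tg7 effect on Gcgr differed between the ages (2.24, SE 0.30, adjusted p = 0.00222), with Gcgr in Tg7 rising with age (1.82, SE 0.22, adjusted p = 1.45e-04).

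Glp1r, the receptor of GLP-1 on β- and δ-cells, was called lower in Tg7 at 2w (−1.61, SE 0.49, edgeR adjusted p = 0.0499), and again at 12w with −1.67 (SE 0.49, adjusted p = 0.0238). The 12w value rested on Wt replicate 4: without it the log2 fold change was −0.45 (adjusted p = 0.189), and leaving out any Tg7 12w library also ended the call. At 2w the call ended on omitting any Wt 2w or Tg7 12w library or replicate 2 or 3 of Tg7 2w (adjusted p up to 0.154). Among receptors of somatostatin, Sstr3, the most abundant, stood between 95.2 and 154 CPM on average in the 4 groups and passed neither test between genotypes (−0.27 and 0.05, adjusted p = 0.345 and 0.872). Sstr1 (2.59, SE 0.75, adjusted p = 0.0222) and Sstr5 (3.24, adjusted p = 0.0310) were called higher in Tg7 at 12w from few reads, with 0, 2 and 4 against 20, 11 and 23 for Sstr1 and 0, 2 and 2 against 8, 26 and 25 for Sstr5.

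Those calls on rare receptors did not hold throughout. The Sstr1 call ended on omitting replicate 1 or 2 of Wt 12w or 1 or 3 of Tg7 12w (adjusted p up to 0.0771), and the Sstr5 call on omitting any Wt 12w library or replicate 2 or 3 of Tg7 12w (up to 0.0850). Npy1r, a Y receptor that binds peptide YY, was called lower at 12w (−2.53, SE 0.86, edgeR adjusted p = 0.0468) from 7, 14 and 2 reads in Wt and 1, 2 and 3 in Tg7, and this was lost without any library other than Wt 12w replicate 4 (adjusted p up to 0.181). Ghsr, the ghrelin receptor, did not pass the edgeR test between genotypes (−0.40 at 2w and −1.67 at 12w, adjusted p = 0.698 and 0.0634). At 12w it had 22, 11 and 112 reads in Wt, with replicate 4 highest, and 19, 36 and 8 in Tg7. With age 0 receptor genes rose and 2 fell in Wt, and 2 rose and 0 fell in Tg7; the falls in Wt were those of Sstr5 (−4.39, adjusted p = 0.00777) and Sstr2 (−0.80, adjusted p = 0.0261), the latter lost on omitting replicate 2 or 3 of Wt 2w or 1 or 2 of Wt 12w (up to 0.0945).

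Of 13 endocrine transcription factors 12 were tested, and Pax4 had at most 8 reads in any library. At 2w 0 were called higher and 2 lower in Tg7, against 6.07% and 4.55% of all tested genes. At 12w 2 were called higher and 1 lower, against 12.5% and 11.2%. Pdx1, the β- and δ-cell factor, fell at 2w (−1.30, SE 0.21, edgeR adjusted p = 0.00149), and so did Insm1 (−0.72, SE 0.16, adjusted p = 0.0133), which lost its call on omitting replicate 1 of Wt 2w or 3 of Tg7 2w (up to 0.0692). Rfx6, needed for all islet endocrine cells but PP cells, rose at 12w (0.72, SE 0.17, adjusted p = 0.00728), and Neurod1 fell (−0.74, SE 0.13, adjusted p = 0.00121, a call lost with library size alone). Isl1 was called higher at 12w (0.42, SE 0.14, adjusted p = 0.0492), which ended on omitting any Wt 2w or Tg7 12w library, replicate 2 of Tg7 2w or 2 or 4 of Wt 12w (up to 0.169). Pax6, which activates Gcg, had log2 fold changes of −0.28 (adjusted p = 0.151) and −0.08 (adjusted p = 0.703). With age 5 of the 12 fell and 0 rose in Wt, and 4 fell and 1 rose in Tg7.

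Other peptide precursors were counted from a list of 17, of which 13 were tested. At 2w 0 were called higher and 2 lower in Tg7 (median log2 fold change −0.49), and at 12w 6 higher and 1 lower (median 1.26). Gast, which encodes the gut hormone gastrin, had 3, 5 and 9 reads in Wt 12w and 64, 81 and 88 in Tg7 12w (log2 fold change 3.2, SE 0.42, edgeR adjusted p = 1.1e-04). Vip, a neuropeptide, rose from 8.82, 8.57 and 10.3 CPM to 57.9, 41.3 and 75.9 CPM (2.66, SE 0.50, adjusted p = 0.00176). Cartpt, a peptide of islet endocrine cells and nerves, rose from 5.29, 4.44 and 3.33 CPM to 22.8, 16.3 and 20.4 CPM (2.20, SE 0.34, adjusted p = 3.9e-04). For each of these the groups did not overlap, and the calls were kept without any 1 library.

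Penk, the precursor of enkephalins (3.15, SE 0.69, edgeR adjusted p = 0.00484), and Tac1, that of substance P (1.97, SE 0.43, adjusted p = 0.00451), also rose at 12w and kept their calls without any 1 library. Cck, cholecystokinin, had 0, 0 and 11 reads in Wt 12w and 61, 63 and 42 in Tg7 12w (3.41, SE 0.92, adjusted p = 0.0160), and lost its call without Tg7 12w replicate 2 (adjusted p = 0.0513). Ucn3, urocortin 3, which β-cells release to stimulate somatostatin secretion from δ-cells, fell at both ages. The fall was 3.6 on the log2 scale at 2w and 4.96 at 12w. Its mean went from 244 to 20.1 CPM at 2w and from 388 to 12.4 CPM at 12w. Ucn3 is itself in the β-cell list of the next paragraph and is counted there too. Trh, the thyrotropin-releasing hormone, was called lower at 2w (adjusted p = 0.0363) with 49 reads in Wt and 3 in Tg7 over the group, a ratio of 18 (exact 95% counting interval 5.81 to 90.3), and lost the call on omitting any Wt 2w library, replicate 1 or 3 of Tg7 2w or 1 or 2 of Tg7 12w (up to 0.120).

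**Figure D5:**
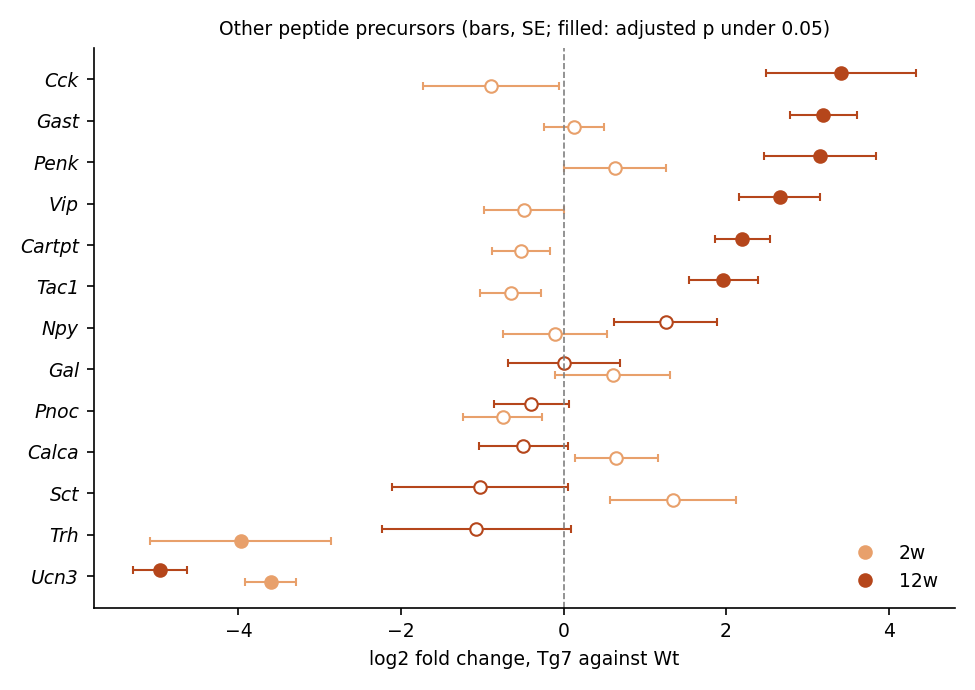
Log2 fold change of 13 other peptide precursors in Tg7 against Wt on the horizontal axis with SE (bars), at 2w (light) and at 12w (dark), filled where the edgeR adjusted p is under 0.05. 6 genes are filled on the higher side at 12w, from Tac1 (1.97) to Cck (3.41), and none at 2w, where Trh and Ucn3 are filled on the lower side.

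Markers of other cells moved with the groups, and their part in the results above was not tested. Of 10 β-cell genes 8 were called lower and 0 higher in Tg7 at each age. Of 5 stellate cell and fibroblast genes 4 were called higher at 2w and 5 at 12w, and their summed level was 217 to 315 CPM in Wt 2w, 403 to 521 in Tg7 2w, 33.9 to 40.8 in Wt 12w and 253 to 285 in Tg7 12w. All 5 endothelial genes were called higher in Tg7 at 12w and 0 at 2w (edgeR; 1 at an unadjusted p of 0.05 and 0 by DESeq2), with sums of 266 to 370 CPM in Wt 12w and 589 to 652 in Tg7 12w. At 2w stellate cell and fibroblast genes thus moved in the same direction as Ppy, and at 12w both lists moved with the other peptide precursors that rose.

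For the remaining lists, 7 acinar genes were tested and 0 called at either age (edgeR; 4 at 2w and 0 at 12w at an unadjusted p of 0.05, and DESeq2 called 1 at 2w and 0 at 12w), with sums of 9.66 to 11.8 CPM in Wt 2w, 20.7 to 26.1 in Tg7 2w, 14.3 to 19.3 in Wt 12w and 14.1 to 15.04 in Tg7 12w. Of 5 ductal genes 0 were called at 2w (edgeR; 2 at an unadjusted p of 0.05 and 1 by DESeq2) and 1 at 12w, higher (sums of 307 to 505 CPM over all 12 libraries). Krt7 made up most of these ductal sums, with group means of 357 to 441 CPM. Of 5 macrophage genes 1 was called higher at 2w and 1 lower at 12w (sums of 36.5 to 92.3 CPM), and of 4 Schwann cell genes 1 was called higher at 12w and 0 at 2w (edgeR; 0 at an unadjusted p of 0.05 and 0 by DESeq2; 7.79 to 23.6 CPM). Enteric epithelium, which makes Gcg, Pyy, Sst and Ghrl in its own endocrine cells, had 3 genes tested, of which 1 was called higher and 1 lower at 2w and 0 at 12w (edgeR; 0 at an unadjusted p of 0.05 and 0 by DESeq2; sums of 146 to 326 CPM), and 5 of its 6 genes had reads. Of its defining factors, Cdx1 was at 0 in all 12 libraries and Cdx2 had at most 5 reads in any library. Vil1 made up most of the enteric sums, with group means of 140 to 287 CPM.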

How the data were processed

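Sequencing libraries (NEB Ultra II kit) came from islets isolated by Liberase digestion and a Histopaque gradient. The authors trimmed paired-end HiSeq2500 reads with Trimmomatic, aligned them to mm9 with TopHat2 2.0.11 and deposited raw read counts per Ensembl gene from featureCounts. Base calling is given as CASAVA in the paper and as bcl2fastq 2.20.0 in the submitters' processing notes, and no source used here states the strand setting. All 12 columns were used. Of 37991 identifiers, 37205 matched the annotation.

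After filterByExpr (at least 10 counts, total of at least 15) and TMM scaling, the counts were fitted in edgeR 4.0.16 (glmQLFit, glmQLFTest, R 4.3.3) as 4 group means without a block, with Benjamini-Hochberg adjustment over all 15961 genes and a threshold of 0.05. An adjusted p of a gene comes from this test unless DESeq2 1.42.0 is named. The SE of a log2 fold change is its size over the root of F, and a prior count of 2 entered log2 CPM. Ratios of 2 hormone genes were tested by exact permutation. The fit was tested on simulated counts.

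The 5 genes, the gene lists and the tests were chosen with earlier results of these data known. Named genes were the 5 hormone genes, the listed genes that passed the test, and the 3 genes most like each hormone gene by each of 2 measures; listed genes given besides these, and libraries named with them, were chosen after their values were seen. Some genes first listed are not reported here, and the lists were counted without them. Alternatives were DESeq2, library size alone, upper-quartile factors, scaling without the 20 most abundant genes, no filter, a filter of 50 counts in 3 libraries, only the groups compared, replicate number as a block, each library left out in turn (a group of 2 is then assumed to vary like the others) and a pseudocount of 5 for ratios. No 2 replicates agreed within sampling noise. Same-number Tg7 and Wt libraries did not deviate together (r between −0.167 and −0.0112), so the numbers were not used as pairs. Counting intervals cover counting error only.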

Additional observations from a re-analysis of the deposited data

Results flagged for a closer look

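None of the 5 hormone genes had a Tg7 effect that differed between 2w and 12w by the interaction test, and groups of 3 libraries are too small for a test of single outlying libraries. Among the 57 hormone and listed genes searched, 6 listed genes had a Tg7 effect at 12w that was higher than that at 2w. The test was edgeR's quasi-likelihood test, Benjamini-Hochberg adjusted over all tested genes, of which 0.871% were called higher and 0.307% lower. The search did not take in the β-cell list as such or the lists of non-endocrine cells. There 4 of 5 stellate cell and fibroblast genes and 1 of 5 endothelial genes were called higher, and 1 of 10 β-cell genes lower. In the acinar, ductal, macrophage, Schwann cell and enteric lists 0 were called. The difference of the 2 log2 fold changes was 2.24 for the glucagon receptor Gcgr (SE 0.30, adjusted p = 0.00222), which was lower in Tg7 at 2w and not at 12w, and 2.19 for the α-cell transporter Slc38a5 (SE 0.27, adjusted p = 0.00127). Both were kept without any 1 library.

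The other 4 were peptide precursors: Gast with 3.07 (SE 0.56, adjusted p = 0.0165), Cartpt with 2.72 (SE 0.49, adjusted p = 0.0153), Vip with 3.15 (SE 0.70, adjusted p = 0.0458) and Tac1 with 2.62 (SE 0.57, adjusted p = 0.0422). Single libraries decided these calls. Gast lost its call on omitting replicate 2 of Wt 2w or 2 or 3 of Tg7 12w (adjusted p up to 0.0662), and Cartpt on omitting replicate 3 of Wt 2w or 1 of Tg7 12w (up to 0.0595). Vip lost its call on omitting any Wt 2w or Tg7 12w library, replicate 1 of Tg7 2w or 1 or 2 of Wt 12w (up to 0.131). Tac1 lost its call on omitting replicate 2 or 3 of either 2w group, 1 or 2 of Wt 12w or any Tg7 12w library (up to 0.130).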

How the results depend on the processing

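No paired numbering was found, so the replicate block is given here only. Of the 5 hormone genes, the number called in Tg7 against Wt at 2w was 1, and became 2 with library size alone, with the replicate block and with only the groups compared. At 12w it was 0, and became 1 with library size alone (Ppy) and with the block (Sst, −0.67, adjusted p = 0.0389). With age in Wt it was 1, and became 2 by DESeq2, 3 with library size alone, 2 with no filter and 2 with the block. With age in Tg7 it was 2, and became 3 by DESeq2, with library size alone and with no filter, and 4 with the block. The interaction gave 0 in every setting. With 1 library left out these counts ran from 0 to 1 at 2w, 0 to 1 at 12w, 1 to 2 with age in Wt and 1 to 3 with age in Tg7. The number of hormone ratios below the threshold ran from 0 to 3 over the same omissions and was 0 with a pseudocount of 5. The block removed no call from a hormone gene, and over all genes it raised the calls from 1695 to 2630 at 2w, from 188 to 502 for the interaction, from 2524 to 3817 with age in Wt and from 2079 to 3088 with age in Tg7, and lowered them from 3774 to 3573 at 12w.

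No call of a hormone gene changed sign. Signs turned for the following estimates that had not passed the test, and the cause was not tested. For Tg7 against Wt at 12w, Gcg was 0.46 with library size alone, 0.057 with upper-quartile factors and 0.00017 with the stricter filter, Sst 0.033 and Ghrl 0.24 with library size alone, and Pyy −0.086 with the block. Sst at 2w was −0.00022 with no filter and −0.0071 with the block, Ppy with age in Wt −0.26 with library size alone, and the Ghrl interaction −0.069 with the block. With 1 library left out, log2 fold changes at 12w ran from −0.21 to 0.24 for Gcg, −0.078 to 0.51 for Ppy, −0.19 to 0.53 for Pyy and −0.63 to 0.11 for Ghrl. They ran from −0.15 to 0.20 for Sst at 2w, −0.10 to 0.37 for Ppy with age in Wt and −0.35 to 0.39 for the Ghrl interaction, and the log2 ratio of Sst to Ghrl ran from −0.14 to 0.36.

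Over all genes, library size alone moved the share of calls that were higher from 57.2% to 84.0% at 2w, from 52.7% to 93.5% at 12w, from 73.9% to 93.1% for the interaction, from 49.96% to 7.9% with age in Wt and from 53.9% to 37.8% with age in Tg7. Upper-quartile factors moved it to 64.7% at 12w, and for the interaction it was 61.9% by DESeq2 and 56.9% with no filter. Library size alone gave 347 interaction calls and 4117 with age in Wt, DESeq2 gave 561 interaction calls and no filter 420. Only the groups compared gave 1283 calls with age in Wt and 3441, against 2079, with age in Tg7. With 1 library left out, calls over all genes ran from 754 to 3071 at 2w, 2417 to 4036 at 12w, 82 to 579 for the interaction, 1336 to 4020 with age in Wt and 1115 to 3329 with age in Tg7.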

Other observations

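The tested genes on either side of each hormone gene were looked up after the hormone values had been seen. Mpp2, 11414 bases from Ppy on the side away from Pyy, was higher in Tg7 at 2w (log2 fold change 0.55, edgeR adjusted p = 0.0251) and fell with age in Tg7 (−0.53, adjusted p = 0.0242), while Nags, 37680 bases beyond Pyy, did not pass the test there (1.87, adjusted p = 0.0518). Fap, 17292 bases from Gcg, was higher in Tg7 at 12w (2.61, adjusted p = 0.0293), and Dpp4, 62298 bases from Gcg on the other side, was lower. The neighbours of Sst (Rtp4, Bcl6) and Ghrl (Tatdn2, Sec13) did not pass the test between genotypes at either age, with adjusted p between 0.145 and 0.980.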
